A study of Mus musculus with 9 samples.

Results

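Microglia are the resident macrophages of the brain. The 9 genes described here mark them: the receptors *Cx3cr1*, *Csf1r*, *Trem2* and *P2ry12*, the complement C1q subunits *C1qa*, *C1qb* and *C1qc*, and the markers *Aif1* and *Tmem119*. They were taken as a list of symbols, and all RefSeq transcript rows of each gene were summed. All 9 had a count in at least 1 library, among 18559 protein-coding genes with a count. Of the 9, 8 were among the 15267 genes tested, and *P2ry12* was not, since its values were too low. The libraries were made by RNA immunoprecipitation and sequencing (RIP-seq), in which an antibody pulls down a protein and the RNA that comes with it is sequenced. There were 3 CELF2 RIPs, 3 IgG RIPs made with a normal rabbit IgG, and 3 inputs set aside before the antibody was added. In each RIP the lysate was kept with 10 µg of antibody for 3 hours. All 9 libraries came from the cytoplasmic fraction of cortical lysate of *Celf2* knock-in mice at postnatal day 0, heterozygous for R493H, so no wild-type library entered any comparison. The labels list microglia as 1 of several cell types in the lysate, and no cell type was sorted.

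Microglia enter the brain before birth and depend on signalling through CSF1R. CX3CR1 is the receptor of the neuronal chemokine fractalkine, P2RY12 senses nucleotides released by other cells, and TREM2 binds lipids and signals through the adaptor TYROBP. C1qa, C1qb and C1qc are the chains of the C1q molecule, which starts the classical complement pathway and tags synapses for removal in the developing brain. AIF1, also known as IBA1, binds calcium and actin. TMEM119 is a surface protein used to tell microglia from other macrophages. CELF2 is an RNA-binding protein that moves between nucleus and cytoplasm, and the comparisons ask which cytoplasmic mRNAs came down with it in the knock-in cortex, relative to an unspecific antibody and to the starting material.

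Total estimated counts ranged from 15919600 to 20052716 in CELF2 RIP, from 17365561 to 28773130 in IgG RIP and from 69125700 to 105116427 in input. Levels are given as CPM, the count relative to the TMM-scaled size of the library. CPM are not scaled for transcript length, so levels were compared between libraries and not between genes. Replicates varied with a common biological coefficient of variation of 0.221. Inputs were aliquots of the fraction that went into the RIPs. For a level in these bulk libraries, fewer microglia and less of an RNA in each microglial cell cannot be told apart.

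In the CELF2 RIPs, 6 of the 8 tested genes were lower than in input and 4 were lower than in IgG RIP, while *Cx3cr1* was higher than in IgG RIP. Calls required both an FDR (Benjamini-Hochberg) below 0.01 in edgeR's quasi-likelihood test and a 2-fold change or more. Relative to IgG RIP, *C1qb*, *C1qc*, *Trem2* and *Tmem119* were called lower in CELF2 RIP, or 4 of the 8 genes tested, against 13.6% of all tested genes. *Cx3cr1* was called higher, 1 of the 8, against 13.4% of all tested genes. Relative to input, 6 of the 8 were called lower in CELF2 RIP, namely *C1qa*, *C1qb*, *C1qc*, *Trem2*, *Aif1* and *Tmem119*, against 15.5% of all tested genes. The single gene called higher than input was *Csf1r*, against 14.6%, and it rests on a row at 0 in every input. In IgG RIP over input, *C1qb*, *C1qc* and *Trem2* were called lower, or 3 of 8 against 5.0%, and 0 were called higher against 6.79%, also 0 in DESeq2's Wald test (at an unadjusted p under 0.05 in edgeR, *Csf1r* alone lay higher). The 8 genes had a median log2 fold change of -1.64 in CELF2 RIP over IgG RIP and of -2.68 over input, where all tested genes had -0.06 and 0.19. For IgG RIP over input the medians were -0.89 and -0.00358. The split of all calls into higher and lower depended on the scaling: with total counts, 6.14% of all tested genes were called higher and 22.4% lower than IgG RIP, and 3.48% higher and 23.5% lower than input, while 5 of the 8 microglia genes were called lower than IgG RIP, with *Aif1* added, and 6 lower than input. The comparisons share libraries and are not independent of each other.

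**Figure D1:**
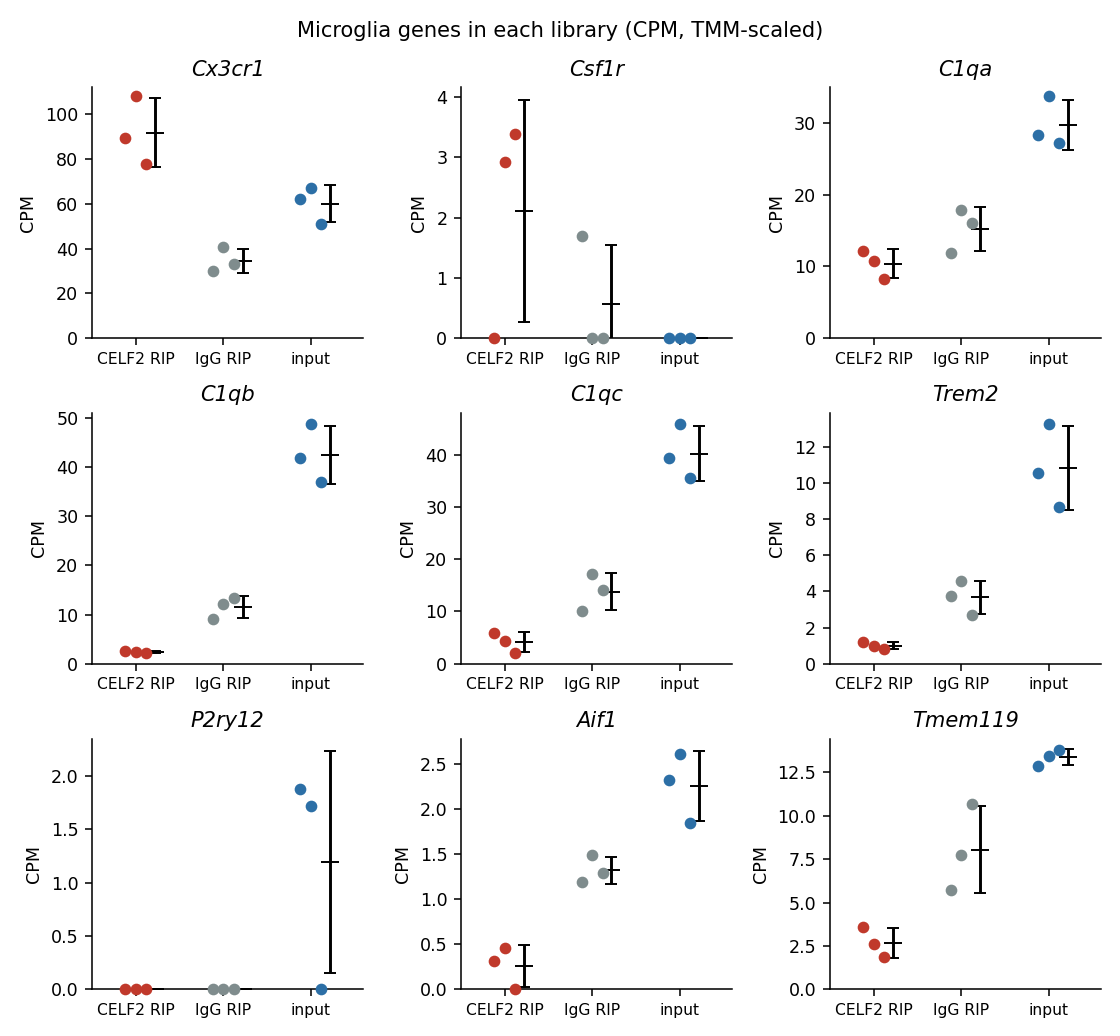
CPM (y axis, linear from 0, a separate scale for each gene) of the 9 microglia genes in the 3 libraries of CELF2 RIP, IgG RIP and input (points), with the mean and SD of each group (bars, n = 3). *C1qb*, *C1qc*, *Trem2*, *Aif1* and *Tmem119* fall from input to IgG RIP to CELF2 RIP with no overlap between groups, and *Cx3cr1* is highest in CELF2 RIP.

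Among the C1q genes, *C1qb* fell furthest. It was at 2.64, 2.46 and 2.14 CPM in the 3 CELF2 RIPs, at 9.01, 12.2 and 13.3 CPM in the IgG RIPs and at 41.8, 48.6 and 36.8 CPM in the inputs. The groups did not overlap, and the 3 CELF2 RIPs lay close together. The log2 fold change in CELF2 RIP was -2.25 relative to IgG RIP (SE 0.21, edgeR FDR 1.72e-05) and -4.13 over input (SE 0.21, edgeR FDR 4.60e-07). IgG RIP over input gave -1.88 (SE 0.18, edgeR FDR 0.000134).

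*C1qc* was at 5.92, 4.39 and 2.14 CPM in the CELF2 RIPs, at 10.1, 17.1 and 14.2 CPM in the IgG RIPs and at 39.3, 45.8 and 35.5 CPM in the inputs. These groups did not overlap either, although CELF2 RIP varied more than for *C1qb*. Set against IgG RIP, the log2 fold change was -1.72 (SE 0.32, edgeR FDR 0.00114) and -3.27 over input (SE 0.32, edgeR FDR 2.17e-05). It was -1.55 in IgG RIP over input (SE 0.29, edgeR FDR 0.00278).

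*C1qa* behaved differently. It was at 12.2, 10.8 and 8.21 CPM in the CELF2 RIPs, at 11.9, 17.8 and 16.1 CPM in the IgG RIPs and at 28.3, 33.7 and 27.2 CPM in the inputs. CELF2 RIP and IgG RIP overlapped, and all 6 RIPs lay below all 3 inputs. The difference from IgG RIP was -0.55 on the log2 scale (SE 0.20, edgeR FDR 0.0403), which was not called, and that from input was -1.52 (SE 0.20, edgeR FDR 0.000112), which was. For IgG RIP over input it was -0.97 (SE 0.20, edgeR FDR 0.00384), just under 2-fold.

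The C1q genes neighbour each other on mouse chromosome 4. In GRCm38.p6 their annotated spans are chr4:136880126-136886200 for *C1qb*, chr4:136889801-136892936 for *C1qc* and chr4:136895916-136898844 for *C1qa*, which do not overlap. Since their products assemble into the same molecule, their counts were also set against each other within each library, a ratio that no scaling of libraries changes. This comparison was chosen after the values were seen, with *C1qb*, which fell furthest of the C1q genes, as the denominator. A rise of these ratios therefore restates the fold changes above. *Cx3cr1*, which is not a C1q gene, was set against *C1qb* as well. The ratio of *C1qa* to *C1qb* counts was 0.678, 0.694 and 0.739 in the inputs, 1.32, 1.46 and 1.20 in the IgG RIPs, and 4.61, 4.38 and 3.83 in the CELF2 RIPs. The groups did not overlap, and the ratio was 6.06-fold higher in CELF2 RIP than in input and 3.21-fold higher than in IgG RIP. The ratio of *C1qc* to *C1qb* moved less, with means of 0.949 ± 0.0120 in input, 1.20 ± 0.184 in IgG RIP and 1.67 ± 0.628 in CELF2 RIP (SD, n = 3). Both RIP groups lay above input in that ratio, and they overlapped each other. *Cx3cr1* to *C1qb* rose furthest, from 1.41 ± 0.0591 in input to 3.03 ± 0.489 in IgG RIP and to 33.9, 43.9 and 36.3 in the 3 CELF2 RIPs, 26.7-fold above input. With 3 libraries against 3, an exact two-sided permutation test cannot give a p below 0.1. That value was reached in 8 of the 9 tests of these ratios (exact permutation, p = 0.113 after Benjamini-Hochberg adjustment over the 9). The exception was *C1qc* to *C1qb* between CELF2 RIP and IgG RIP (exact permutation p = 0.4).

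**Figure D2:**
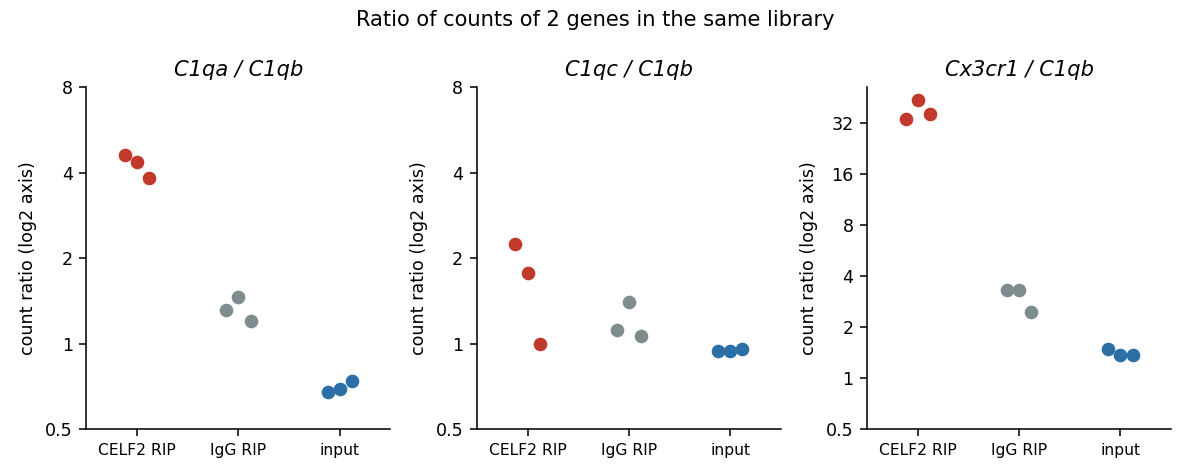
Ratio of the counts of 2 microglia genes in the same library (y axis, log2 scale) for the 3 libraries of each group (points). *C1qa* to *C1qb* lies between 0.678 and 0.739 in input and between 3.83 and 4.61 in CELF2 RIP, and *Cx3cr1* to *C1qb* rises from 1.41 on average to between 33.9 and 43.9, while *C1qc* to *C1qb* overlaps between the RIPs.

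*Trem2* followed *C1qb*. It was at 1.20, 1.0 and 0.803 CPM in the CELF2 RIPs, at 3.75, 4.56 and 2.72 CPM in the IgG RIPs and at 10.6, 13.3 and 8.67 CPM in the inputs. All 3 groups were separate. The log2 fold change was -1.86 against IgG RIP (SE 0.30, edgeR FDR 0.000486), -3.43 over input (SE 0.30, edgeR FDR 1.06e-05) and -1.56 in IgG RIP over input (SE 0.26, edgeR FDR 0.00148). The CELF2 RIP values rest on 15, 13 and 9 counts.

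*Tmem119* was at 3.60, 2.62 and 1.87 CPM in the CELF2 RIPs, at 5.69, 7.73 and 10.7 CPM in the IgG RIPs and at 12.9, 13.5 and 13.8 CPM in the inputs. The inputs hardly varied, and the IgG RIPs were spread between the other groups without reaching either. CELF2 RIP differed from IgG RIP by a log2 fold change of -1.57 (SE 0.29, edgeR FDR 0.00105) and -2.30 over input (SE 0.29, edgeR FDR 7.55e-05). IgG RIP was not called against input (log2 fold change -0.73, SE 0.26, edgeR FDR 0.0479).

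*Aif1* had few counts, with 4, 6 and 0 counts in the CELF2 RIPs, 19, 15 and 18 in the IgG RIPs and 146, 237 and 114 in the inputs. As CPM these were 0.320, 0.462 and 0, then 1.19, 1.49 and 1.29, then 2.32, 2.61 and 1.84. The groups were separate, but the CELF2 RIP values lay close to the limit of detection, where 3 counts correspond to 0.231 to 0.268 CPM. Of the 4 annotated *Aif1* transcripts, 2 had no row, so its sums may be incomplete. The log2 fold change over input was -3.06 (SE 0.62, edgeR FDR 0.00175). Over IgG RIP it was -2.28 (SE 0.65, edgeR FDR 0.0127), which missed the FDR threshold and passed it with total-count scaling, with upper-quartile scaling and with DESeq2's Wald test (FDR 0.00518, 0.00699 and 0.000869).

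In *C1qb*, *C1qc*, *Trem2*, *Aif1* and *Tmem119*, or 5 of the 8 genes tested, every CELF2 RIP lay below every IgG RIP and every IgG RIP below every input. That order was found in 8.64% of all tested genes. Every CELF2 RIP lay below all 6 controls in the same 5 genes and in 19.9% of all tested genes. Every IgG RIP lay below every input in 7 of the 8 genes, with *Csf1r* the exception, and in 29.4% of all tested genes.

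*Cx3cr1* went the other way. It was at 89.4, 108 and 77.7 CPM in the CELF2 RIPs, at 29.8, 40.5 and 32.9 CPM in the IgG RIPs and at 61.9, 67.2 and 50.8 CPM in the inputs. In these TMM-scaled values every CELF2 RIP lay above all 6 controls, an order found in 25.2% of all tested genes. It rested on 871 to 1404 counts in CELF2 RIP, far more than the other genes had there. Its log2 fold change over IgG RIP was 1.42 (SE 0.17, edgeR FDR 8.15e-05). Over input it was 0.61 (SE 0.17, edgeR FDR 0.00948), less than 2-fold and therefore not called. The size of this difference from input depended on the scaling, and with total-count scaling it was 0.14 (edgeR FDR 0.490). IgG RIP itself lay below input, by a log2 fold change of -0.80 (SE 0.17, edgeR FDR 0.00479), so the gap to IgG RIP was wider than that to input. The higher level over IgG RIP was called under every alternative except counts from curated rows alone, where the log2 fold change was 0.999 with an FDR of 0.0167.

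**Figure D3:**
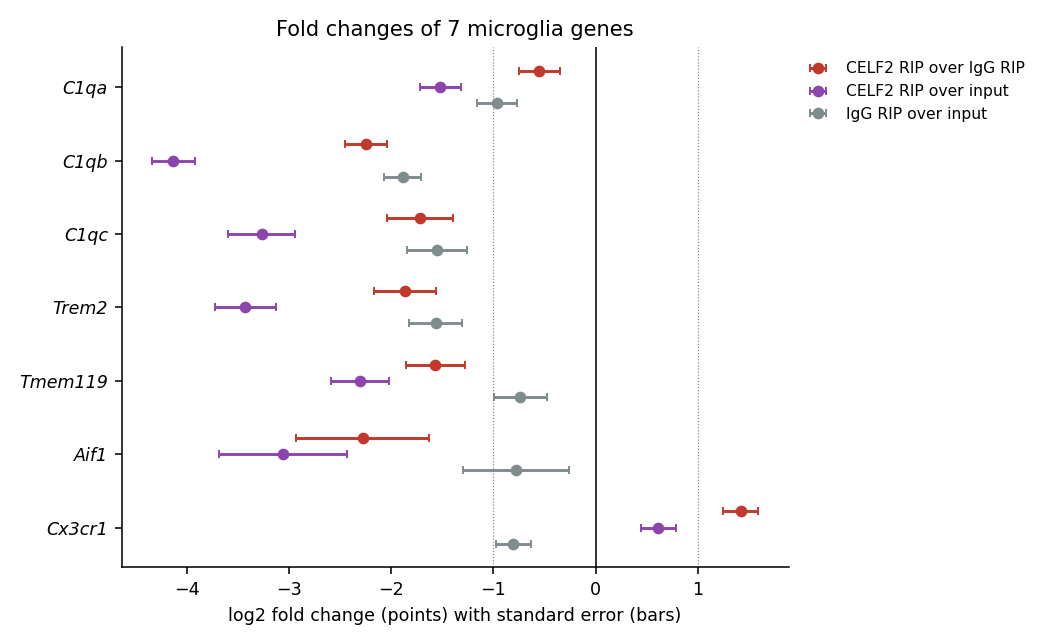
Log2 fold changes (x axis, points) with standard errors (bars) of 7 microglia genes in the 3 comparisons (colours), from edgeR's fit of all 9 libraries; dotted lines mark 2-fold. *Csf1r*, at 0 in input, and *P2ry12*, not tested, are left out. *C1qb* reaches -4.13 in CELF2 RIP over input, and *Cx3cr1* alone lies above 0 in both CELF2 RIP comparisons.

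The values of *Csf1r* and *P2ry12* are incomplete or too low to read. *Csf1r*, on chr18:61105572-61131139, matched 1 row of the table. That row held 0, 38 and 38 counts in the CELF2 RIPs, 27, 0 and 0 in the IgG RIPs and 0 in all 3 inputs, although the inputs were the deepest libraries. With 1 CELF2 RIP itself at 0, its mean of 2.11 CPM there gives no lower bound on the difference from input. The call over input passed in 4 of the 14 other fits that could test it and failed in 10, among them the fit with the replicate block (FDR 0.0281). Over IgG RIP the difference was not called (edgeR FDR 0.351). *P2ry12* had 118, 156 and 0 counts in the inputs and 0 in all 6 RIPs, where 3 counts would have been 0.188 to 0.297 CPM. Its inputs were at 1.88, 1.72 and 0 CPM. The first and the second input lay above that counting limit, but the third was itself at 0. The zeros in the RIPs can therefore not be read as absence of the RNA. Of 107384 rows in the table, 20662 had no gene in the gene table, 20338 of them predicted transcripts, and they took between 9.24% and 9.75% of the counts in input, 11.6% to 12.6% in CELF2 RIP and 21.1% to 43.5% in IgG RIP. Any reads of *Csf1r*, *P2ry12* or *Aif1* in such rows are missing from these sums, and how many was not tested.

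Rows of the same gene exchanged reads between libraries, which the sums absorb. *Tmem119* has a curated and a predicted transcript in the table. The predicted row held all of its counts in IgG RIP 3 and 98.97% to 100% in the inputs, whereas the curated row held all of them in IgG RIPs 1 and 2 and in CELF2 RIP 3. For *Trem2*, both rows are curated, and a row with 8.59% to 13.1% of the counts in the inputs had all 15 counts of CELF2 RIP 1 and none in the other RIPs. The split was steadier in *Cx3cr1*, where the predicted row held 33.9% to 35.8% in the inputs, 31.3% to 43.7% in the CELF2 RIPs and 15.4% to 36.9% in the IgG RIPs. With curated rows alone, *Tmem119* therefore lost its calls and turned to 3.47 on the log2 scale in CELF2 RIP over input. No difference between transcripts of a gene was read from these rows.

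All but the fractalkine and CSF1 receptors among the tested genes are short, and short genes as a whole lay low in CELF2 RIP. The tested genes were divided into 10 equal groups by genomic span, since transcript lengths were not used here. The median log2 fold change of CELF2 RIP over IgG RIP was -0.66 in the shortest group, which holds *C1qa* and *C1qc*, and -0.41 in the next, which holds *C1qb*, *Trem2*, *Aif1* and *Tmem119*. It was -0.09 in the fifth group, which holds *Cx3cr1*, and 0.22 in the ninth. In the 2 shortest groups 32.0% and 22.3% of the genes were called lower than in IgG RIP, and 39.0% and 28.9% lower than in input. In the fifth group 13.6% of the genes were called higher than in IgG RIP. *C1qb*, *C1qc*, *Trem2*, *Aif1* and *Tmem119* lay below the lower quartile of their span group in both comparisons, and *Cx3cr1* lay above the upper quartile of its group over IgG RIP. *C1qa* lay near the median of its group over IgG RIP. The part of span in these values was not tested.

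**Figure D4:**
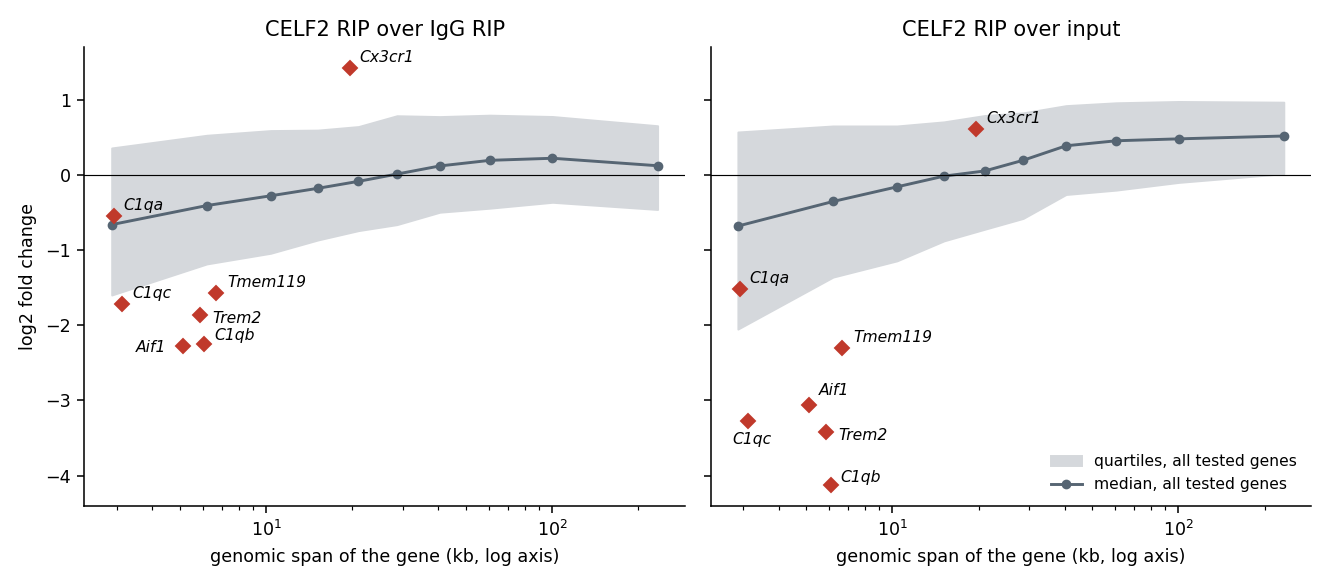
Log2 fold change (y axis) against the genomic span of the gene (x axis, kb, log scale) in CELF2 RIP over IgG RIP (left) and over input (right). The line joins the medians of 10 equal groups of all tested genes by span, the band shows their quartiles, and diamonds are 7 microglia genes. In CELF2 RIP over IgG RIP the medians rise from -0.66 in the shortest group to 0.22 in the ninth, and 5 microglia genes lie below the band.

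Sequences upstream of an annotated start are shown for the genes that moved together. They are given because these genes share a myeloid expression programme, for which the transcription factor PU.1 (*Spi1*) is known. RIP-seq does not measure promoters, so the sequences are background to the list. RefSeq promoter sequences of GRCm38.p6 were used for 6 of the 9 genes. *C1qa*, *Csf1r* and *Tmem119* were not among them, and whether *Csf1r* had an entry was not tested. The 250 bases before the start given for each promoter were searched on both strands for GAGGAA. This is the purine-rich core of PU.1 sites, and its reverse complement is TTCCTC. It was present in 4 of the 6, namely *C1qb*, *C1qc*, *Trem2* and *Aif1*, and in 23.3% of the 32851 promoters of the same length in the table. *Cx3cr1* and *P2ry12* held no match in this window. The match began 30 bases before the start used for *C1qb*, 40 before that for *Trem2*, 193 before that for *C1qc* and 7 before that for *Aif1*. The annotated spans of *C1qc* and *Aif1* reach into their windows, to chr4:136892936 and chr17:35176083. The *Aif1* match therefore lies inside the annotated span of its gene. The 5 sequences below are written 5′ to 3′ on the strand of the gene, with GAGGAA or its reverse complement in capitals, and *Cx3cr1* is given as the gene that moved the other way.
C1qb, chr4:136886201-136886450, minus strand: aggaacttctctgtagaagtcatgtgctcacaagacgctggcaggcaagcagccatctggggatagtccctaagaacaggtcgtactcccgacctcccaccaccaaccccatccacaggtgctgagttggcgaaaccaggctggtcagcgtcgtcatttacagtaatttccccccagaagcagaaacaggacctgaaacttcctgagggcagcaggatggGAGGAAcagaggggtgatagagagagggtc
C1qc, chr4:136892915-136893164, minus strand: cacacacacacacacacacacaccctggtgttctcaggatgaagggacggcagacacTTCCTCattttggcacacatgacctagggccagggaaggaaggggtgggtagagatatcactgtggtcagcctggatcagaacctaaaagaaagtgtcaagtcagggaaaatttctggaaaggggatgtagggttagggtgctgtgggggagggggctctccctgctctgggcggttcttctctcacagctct
Trem2, chr17:48346151-48346400, plus strand: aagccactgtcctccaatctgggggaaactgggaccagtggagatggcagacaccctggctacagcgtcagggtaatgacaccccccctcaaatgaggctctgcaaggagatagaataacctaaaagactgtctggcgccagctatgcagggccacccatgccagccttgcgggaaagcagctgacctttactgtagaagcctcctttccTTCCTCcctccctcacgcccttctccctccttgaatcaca
Aif1, chr17:35176053-35176302, minus strand: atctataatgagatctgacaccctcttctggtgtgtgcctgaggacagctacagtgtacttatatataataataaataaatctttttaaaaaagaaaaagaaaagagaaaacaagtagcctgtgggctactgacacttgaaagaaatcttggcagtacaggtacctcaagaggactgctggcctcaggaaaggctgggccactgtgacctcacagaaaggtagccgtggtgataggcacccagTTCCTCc
Cx3cr1, chr9:120068297-120068546, minus strand: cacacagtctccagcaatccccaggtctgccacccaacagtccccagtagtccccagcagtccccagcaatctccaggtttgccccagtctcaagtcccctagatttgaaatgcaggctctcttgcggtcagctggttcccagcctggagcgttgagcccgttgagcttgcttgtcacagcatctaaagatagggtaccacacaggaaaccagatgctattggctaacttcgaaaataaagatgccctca

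Among other genes known from microglia, a list of 12 homeostatic surface and secreted genes had 8 called lower and 1 higher in CELF2 RIP than in input, and 3 lower and 1 higher than in IgG RIP. Those lower than IgG RIP were *Sparc*, *P2ry13* and *Olfml3*. The list had a median of -0.75 against IgG RIP and of -1.32 against input. *Fcrls*, an Fc-receptor-like microglial gene, was at 12.9 ± 3.74 CPM (SD, n = 3) in CELF2 RIP, 21.4 ± 5.75 in IgG RIP and 42.9 ± 8.40 in input, with a log2 fold change of -1.73 over input (edgeR FDR 0.000286). *Sparc*, a matrix protein that vessels and other glia also make, was called lower in both comparisons (-1.65 and -2.62). The gene that rose was *Tgfbr1*, a TGF-beta receptor subunit expressed in many cell types, at 249 ± 86.7 CPM in CELF2 RIP against 79.2 ± 22.8 in IgG RIP and 75.1 ± 2.33 in input.

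Signalling and lysosomal genes around TREM2 were split as well. Of the 11 tested of 12 listed, 6 were called lower and 1 higher than in input, and 4 lower and 1 higher than in IgG RIP. *Tyrobp*, the adaptor of TREM2, was at 1.5 ± 0.635 CPM in CELF2 RIP, 3.79 ± 2.11 in IgG RIP and 12.7 ± 2.35 in input (SD, n = 3). It changed by -3.07 on the log2 scale over input (edgeR FDR 0.000158) and -1.32 over IgG RIP, which was not called (edgeR FDR 0.0247). *Cd68*, a lysosomal membrane protein of phagocytes, had log2 fold changes of -2.23 over IgG RIP and -3.22 over input, and *Fcer1g*, another signalling adaptor, of -1.53 and -3.02. *Apoe*, a lipid carrier that astrocytes make too, had -1.98 and -2.35, and *Lyz2*, a lysozyme of myeloid cells, -1.47 and -2.86. The member that rose was *Grn*, encoding progranulin, which neurons also express, with log2 fold changes of 1.33 over IgG RIP and 1.04 over input.

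As a list, the transcription factors of microglia and macrophages did not show the depletion of the C1q genes, though single factors were low or too sparse to read. Of 8, only *Irf5* was called lower than input (log2 fold change -1.35, edgeR FDR 0.00696) and 0 were called lower than IgG RIP, although *Irf5* was at an unadjusted p under 0.05 there (log2 fold change -1.06, edgeR FDR 0.0284) and DESeq2's Wald test also called 0. With total-count scaling 1 was called lower than IgG RIP, and with the replicate block 0 were called lower and 1 higher than input. *Ikzf1*, a zinc finger factor of blood cells, was called higher than IgG RIP (log2 fold change 1.17, edgeR FDR 0.000134). *Sall1*, which defines microglia among macrophages but is also made by neural progenitors, was at 37.1 ± 19.1 CPM in CELF2 RIP, 26.0 ± 4.03 in IgG RIP and 14.3 ± 3.61 in input (SD, n = 3) and was not called. The median of the 8 factors was 0.60 over IgG RIP and 0.58 over input.

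A short list of ligands that act on microglia was read too. *Cx3cl1*, which encodes fractalkine, the ligand of CX3CR1, was at 173 ± 16.3 CPM in CELF2 RIP, 76.4 ± 8.84 in IgG RIP and 164 ± 5.66 in input (SD, n = 3). It rose over IgG RIP by 1.18 (log2 fold change, edgeR FDR 2.57e-05) and differed from input by 0.07, so like its receptor it was called over IgG RIP and not over input. *Il34*, a neuronal ligand of CSF1R, was called lower in both comparisons (-1.50 and -1.67), whereas *Csf1*, the other ligand, was called in neither (0.32 and -0.07). *Tgfb1*, which encodes a cytokine that microglia need and also make, was called lower than input (-1.75) and not lower than IgG RIP (-0.33). Among 11 further complement components and receptors, *Serping1*, the C1 inhibitor, was the only gene called, at -1.77 over IgG RIP and -2.69 over input. *C4b*, which encodes complement C4, differed from IgG RIP by -0.62 (log2) and was not called. The 8 genes of activated microglia in the early postnatal brain had 1 called higher than IgG RIP, the growth factor *Igf1* (log2 fold change 2.01, edgeR FDR 0.000635; with the replicate block 1 gene was also called higher than input), and 2 called lower than input, *Lgals3* (-2.52) and *Cd9* (-1.30). *Lpl*, a lipoprotein lipase, was not called.

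**Figure D5:**
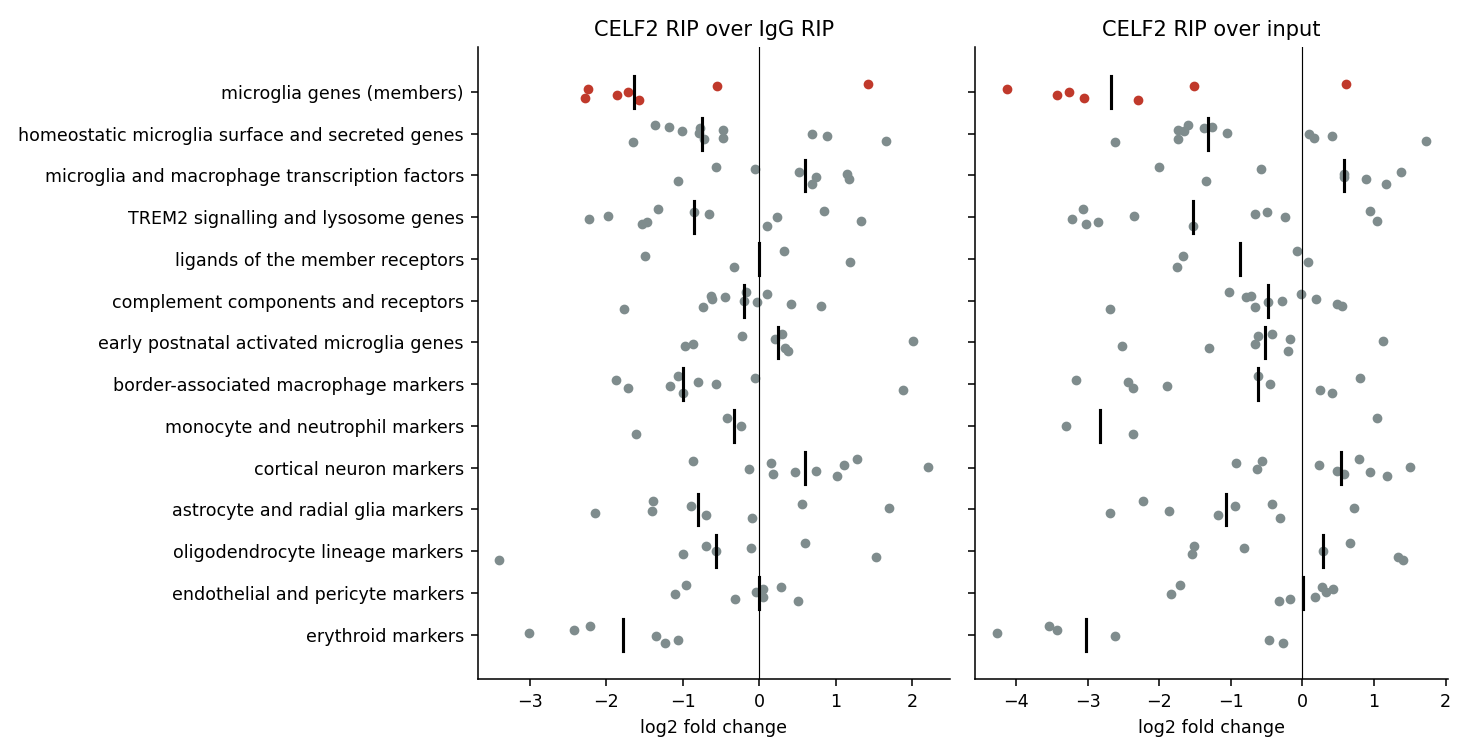
Log2 fold change (x axis) of each tested gene (points) of the microglia genes (red) and of 13 other lists (grey) in CELF2 RIP over IgG RIP (left) and over input (right); black bars are list medians. *Csf1r* and *S100a8* are not drawn, since they were at 0 in a group, but count in the medians. The microglia genes have medians of -1.64 and -2.68, the erythroid markers of -1.78 and -3.03, and the cortical neuron markers of 0.60 and 0.53.

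Most of these 9 genes are shared by microglia and other macrophages, so markers of related cells were read beside them. The 9 border-associated macrophage markers, for cells of the meninges and vessels, were all present in input, with summed levels of 214 to 294 CPM in input, 374 to 581 CPM in IgG RIP and 240 to 284 CPM in CELF2 RIP. Of them, 2 were called lower and 1 higher in CELF2 RIP than in IgG RIP, and 3 lower than input. *Lyve1* was lower than both (-1.88 and -3.17), *Pf4* and *Cbr2* were lower than input (-2.44 and -2.37), and *Mrc1* was lower than IgG RIP (-1.06). The gene called higher was *Ccr1* (1.88), a call lost with the replicate block. *Stab1* was raised in IgG RIP, at 352 ± 78.0 CPM against means of 133 in input and 177 in CELF2 RIP (SD, n = 3). The summed level of the 9 microglia genes was 175 to 226 CPM in input, 73.1 to 101 in IgG RIP and 96.3 to 133 in CELF2 RIP. *Cx3cr1* alone had a mean of 91.8 CPM in CELF2 RIP, so that sum mostly follows this gene. CPM are not scaled for transcript length, so the sums of different lists were not compared with each other. Monocyte and neutrophil markers were sparse: *Ly6c2*, *S100a8* and *Ly6g* had no count in any RIP, *Ccr2* and *Ngp* were at 0.562 and 0.578 CPM in input on average, and the 7 markers summed to 2.59 to 3.49 CPM there. The part of these cells in the results was not tested.

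Markers of other cells of the cortex moved in different directions in the same comparisons. All 6 tested erythroid markers lay below 0 in both, and 5 were called lower than IgG RIP and 4 lower than input. The globin genes *Hbb-bs*, *Hba-a1* and *Hba-a2* had log2 fold changes of -4.27, -3.55 and -3.43 over input, near that of *C1qb*. Of 8 astrocyte and radial glia markers, 4 were called lower than input, namely *Vim* (-2.69), *Aldoc* (-2.23), *Fabp7* (-1.86) and *Sox2* (-1.18), while *Slc1a3* was not called. Over IgG RIP 3 of this list were called lower, *Vim* (-2.15), *Aldoc* (-1.39) and *Fabp7* (-1.40), and *Aqp4*, a water channel of astrocytes, was called higher (1.69, edgeR FDR 0.000481), with 0.72 over input. Of 8 endothelial and pericyte markers, *Cdh5* and *Cldn5* were called lower than input (-1.83 and -1.71), and *Pdgfrb* and *Rgs5* were not. Only *Cdh5* of these 8 was called against IgG RIP (-1.10). In the oligodendrocyte lineage, *Sox10* and *Olig1* were called lower than input (-1.54 and -1.52) and *Mbp* higher (1.33), while *Pdgfra* and *Cspg4* were not called. Against IgG RIP, *Mbp* alone of the 7 was called (1.52). Of 10 cortical neuron markers, 0 were called lower in CELF2 RIP than in IgG RIP (also 0 in DESeq2's Wald test and 1 with total-count scaling, and *Rbfox3* alone was lower at an unadjusted p under 0.05 in edgeR, at -0.87) and 4 were called higher: *Slc17a7* (2.21), *Snap25* (1.27), *Tubb3* (1.11) and *Bcl11b* (1.02). *Stmn2*, at 0.15, was not called. Over input 2 of the 10 were called higher, *Slc17a7* (1.5 on the log2 scale) and *Bcl11b* (1.18), and 0 lower in edgeR, where 3 were lower at an unadjusted p under 0.05, *Stmn2*, *Rbfox3* and *Neurod6*. *Stmn2* lay at -0.93 (edgeR FDR 0.000296), under 2-fold, and *Tubb3* at 0.24. DESeq2's Wald test called 1 lower than input, and total-count scaling gave 1 higher and 3 lower.

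Other genes had a similar pattern over the 9 libraries. The mean of the standardized log2 CPM was taken over the 8 tested genes, including *Cx3cr1* and *Csf1r*, which were not lower in CELF2 RIP. It was compared with every other tested gene by Pearson's correlation over the 9 libraries, which fall into 3 groups. The 5 genes most like it were *Gnas*, *Selenof*, *Gm17455*, *Mob4* and *Mrps6*, with coefficients of 0.985 to 0.986. *Gnas*, which encodes a G protein alpha subunit, was at 246 ± 35.5 CPM in CELF2 RIP, 375 ± 6.20 in IgG RIP and 743 ± 23.1 in input (SD, n = 3). *Selenof* was at 32.5 ± 7.45, 58.1 ± 4.99 and 156 ± 15.1 CPM. Both were called lower than input (-1.59 and -2.27), which is no separate result, since they were picked for this pattern. Relative to IgG RIP they differed by -0.61 and -0.84 and were not called.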

How the data were processed

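The authors depleted rRNA, made directional libraries, trimmed reads with fastp 0.23.4 after FastQC 0.11.9, removed rRNA reads with Ribodetector 0.3.1 and pseudoaligned with kallisto 0.51.1. They deposited estimated counts per RefSeq transcript, not normalized for depth or length. The paper names an Ensembl transcriptome, whereas the rows carry RefSeq accessions. All 9 columns were used. Rows were assigned to genes by unversioned accession in the RefSeq table of GRCm38.p6 (86722 of 107384 rows), summed over protein-coding genes and rounded. The 9 genes have 19 transcripts in that table, of which 14 had a row. Those without a row belonged to *P2ry12* (3 of 4) and *Aif1* (2 of 4).

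Genes reaching 0.5 CPM in 3 or more libraries were tested in edgeR 4.0.16 (limma 3.58.1, R 4.3.3) with a mean per group, TMM scaling and the quasi-likelihood test, the paper's methods naming generalized linear models in edgeR 4.4.0 without the test or the threshold on CPM. DESeq2 1.42.0 was an alternative. Tables and figures used Python 3.11.15, pandas 2.3.3 and matplotlib 3.10.9. The steps were tested on simulated data. The genes and lists were chosen with earlier results of these data known. Outside the 9 genes, those named are up to 3 called genes of each list with the largest change and the 2 of highest mean CPM. Markers at 0 in a group and the 5 genes of most similar pattern (log2 of CPM plus 0.5) are named too. *P2ry13*, *Olfml3*, *Lyz2*, *Ccr1*, *Aqp4*, *Sox2*, *Neurod6*, *Rbfox3*, *Spi1* and *Irf8* were added after their values were seen. A few genes that this rule names are not reported here. P-values measure the spread between these libraries, which the labels call biological replicates. Counting limits cover counting error only, since reads carry no molecular identifiers.

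Same-numbered libraries deviated together in CELF2 RIP and input, with correlations over 11534 genes of 0.185, 0.122 and 0.213, but not in CELF2 RIP and IgG RIP (-0.07, 0.04 and -0.01) or IgG RIP and input (0.09, 0.06 and 0.01). The pairing comes from these values, not the labels, and the replicate block was run as an alternative.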

Additional observations from a re-analysis of the deposited data

How the results depend on the processing

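The numbers of genes called in CELF2 RIP over IgG RIP (5, with 1 higher and 4 lower) were 3, 0 and 3 with curated rows alone and stayed at 5, 1 and 4 in all 9 fits that left out 1 library. Over input, 7 were called, 6 of them lower; leaving out 1 library gave 6 to 7 in all, 0 to 1 higher and 6 lower, and curated rows alone gave 4 in all and 0 higher. The 1 gene higher than input, *Csf1r*, became 0 with DESeq2 size factors, total-count scaling, upper-quartile scaling, DESeq2's Wald test, the replicate block and the 6 compared libraries alone, and 2 with an FDR under 0.05 and no fold minimum. Its call was also lost, or the gene no longer tested, without CELF2 RIP replicate 2 or 3, IgG RIP replicate 1 or 2 and each input in turn. The block changed no other call of these genes. In IgG RIP over input, 3 were called lower and 0 higher, against 1 with curated rows alone and 1 without input replicate 2, where *C1qc* and *Trem2* lost their calls, with 1 to 4 called over the 9 fits that left out 1 library. With an FDR under 0.05 and no fold minimum, 7 were called there, 6 lower and 1 higher. Total-count scaling shifted the median of all genes by -0.37 over IgG RIP and by -0.46 over input. No direction of these 8 genes changed under any scaling tried. *Tmem119* reversed with curated rows alone, to 3.47 in CELF2 RIP over input and 6.49 in IgG RIP over input, neither called, since its reads lay in the predicted row in input. Apart from the fewer libraries or rows in these fits, the cause of the moves was not tested. Depth limits *Aif1*, *Trem2* and *P2ry12* in the RIPs, and *Aif1* and *P2ry12* also had transcripts without a row.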
